A study of Drosophila melanogaster with 2 samples.

Results

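Of 3535 reproducible binding sites of the zinc finger protein CG17802 in the Drosophila melanogaster embryo, 391 (11.1%, Wilson 95% interval 10.1 to 12.1) lay between genes and far from promoters. They were chosen as the peaks of the thresholded list on the chromosome arms 2L, 2R, 3L and 3R whose summit was over 1000 bp from every annotated transcription start site (TSS) and inside no annotated gene, transposable elements not being counted as genes. Signal was not used to choose among the peaks of that list, but the authors had already thresholded the list itself for reproducibility. They made up 13.6% (12.4 to 15) of the 2865 thresholded peaks on these 4 arms, with 91 on 2L, 88 on 2R, 134 on 3L and 78 on 3R. Chromatin immunoprecipitation sequencing (ChIP-seq) was done on whole embryos of 0 to 14 h, males and females pooled, from 1 transgenic line that makes CG17802 with GFP at its C terminus, with chromatin sonicated to fragments of 200 to 800 bp. There was 1 group of 2 biological replicates, both from that line, so no condition could be compared, and whole embryos do not show in which cells a site was bound. Neither the promoter that drives the fusion nor the state of the native gene is given in the sources used. The labels are not in accord on the libraries: a description field speaks of input control, the antibody listed is CG17802, and the file descriptions set these libraries against a separate control.

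CG17802 is encoded by the gene Nnk (Nicknack) and belongs to the ZAD zinc finger proteins, a large insect family whose members pair through an N-terminal zinc-binding domain and bind DNA through C2H2 zinc fingers. Intergenic DNA in the fly holds enhancers, insulators and, next to the centromeres, blocks of transposon-rich heterochromatin in which housekeeping genes are embedded. A bound site in such DNA can lie far from the nearest gene, and the nearest gene need not be its target.

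The sites are numbered here from the highest to the lowest signal, the enrichment value that the authors gave each peak, in units whose scale is not stated. The first 6 windows printed show what lay under the strongest sites, as the 201 bp centred on the summit in the RefSeq reference of Release 6 (dm6). Capitals mark exact matches, on either strand, to any of 9 of the 10 motifs described below; the last of the 10, a pair of CGATA, is not marked. Sites 2 and 5 lie in the gap between CG41128 and CG41099, site 3 between Tif-IA and Marf1, site 4 between CR12460 and mRpS5, site 7 between Cht10 and Spf45, and site 10 between COX7AL2 and CG31668.
site 2, chr3R:3789687-3789887, + strand: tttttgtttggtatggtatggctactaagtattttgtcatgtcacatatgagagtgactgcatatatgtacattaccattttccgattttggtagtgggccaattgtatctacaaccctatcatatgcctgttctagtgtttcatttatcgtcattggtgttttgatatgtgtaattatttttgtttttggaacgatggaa
site 3, chr2L:22292880-22293080, + strand: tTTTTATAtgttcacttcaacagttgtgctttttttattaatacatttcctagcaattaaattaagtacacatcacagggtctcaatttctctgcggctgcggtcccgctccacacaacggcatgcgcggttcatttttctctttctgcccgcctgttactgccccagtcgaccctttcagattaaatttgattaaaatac
site 4, chr3L:24536098-24536298, + strand: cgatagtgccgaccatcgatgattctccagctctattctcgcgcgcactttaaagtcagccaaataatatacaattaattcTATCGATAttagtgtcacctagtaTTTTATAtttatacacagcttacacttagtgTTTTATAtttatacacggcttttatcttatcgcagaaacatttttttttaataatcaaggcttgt
site 5, chr3R:3843016-3843216, + strand: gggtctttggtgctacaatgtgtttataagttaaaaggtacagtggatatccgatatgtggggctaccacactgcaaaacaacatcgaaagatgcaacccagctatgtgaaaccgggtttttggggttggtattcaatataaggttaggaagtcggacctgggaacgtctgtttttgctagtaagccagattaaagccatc
site 7, chr2L:23065279-23065479, + strand: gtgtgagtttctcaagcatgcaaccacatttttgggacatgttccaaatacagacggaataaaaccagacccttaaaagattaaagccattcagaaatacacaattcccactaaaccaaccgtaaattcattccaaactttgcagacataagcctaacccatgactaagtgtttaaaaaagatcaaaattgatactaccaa
site 10, chr2L:2202335-2202535, + strand: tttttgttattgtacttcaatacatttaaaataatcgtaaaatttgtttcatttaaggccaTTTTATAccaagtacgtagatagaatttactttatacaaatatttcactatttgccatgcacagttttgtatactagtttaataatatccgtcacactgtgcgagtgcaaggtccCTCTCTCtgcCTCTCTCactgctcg

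The windows of sites 2, 5 and 7 held none of the 10 motifs. Site 4, beside mRpS5, which encodes a protein of the mitochondrial ribosome, held TATCGATA, the recognition sequence of the factor DREF. The 4 windows that follow were picked after the values were seen, because each holds CACTGAGA, the 8-base sequence that led a ranking of all 8-mers in these sites. Capitals mark CACTGAGA, its reverse complement, and matches to the same 9 motifs. Site 22 lies between slp1 and slp2, site 42 between lncRNA:CR45937 and lncRNA:CR45936, site 45 between CG43401 and CG43402, and site 49 between lncRNA:CR45303 and lncRNA:CR45693.
site 22, chr2L:3832432-3832632, + strand: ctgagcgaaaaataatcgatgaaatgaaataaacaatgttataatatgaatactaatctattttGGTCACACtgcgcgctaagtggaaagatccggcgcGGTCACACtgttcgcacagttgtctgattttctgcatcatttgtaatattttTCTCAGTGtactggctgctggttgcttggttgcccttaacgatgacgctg
site 42, chr3L:18235939-18236139, + strand: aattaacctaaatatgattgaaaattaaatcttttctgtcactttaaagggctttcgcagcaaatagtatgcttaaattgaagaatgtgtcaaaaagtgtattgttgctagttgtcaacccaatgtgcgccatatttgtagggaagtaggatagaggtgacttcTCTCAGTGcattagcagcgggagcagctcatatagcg
site 45, chr2L:1433805-1434005, + strand: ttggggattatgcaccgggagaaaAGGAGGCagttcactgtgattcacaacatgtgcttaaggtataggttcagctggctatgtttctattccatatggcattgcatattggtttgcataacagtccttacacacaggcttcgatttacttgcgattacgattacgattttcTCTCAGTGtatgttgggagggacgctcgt
site 49, chr2L:14502689-14502889, + strand: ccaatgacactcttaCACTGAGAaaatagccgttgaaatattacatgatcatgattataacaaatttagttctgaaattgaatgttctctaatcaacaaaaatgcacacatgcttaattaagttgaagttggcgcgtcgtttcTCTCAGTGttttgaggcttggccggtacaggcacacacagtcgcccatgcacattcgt

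The signal of the distal intergenic sites was low in most and very high in a few. It ran from 109.8 to 4931.0, with quartiles of 133.8 and 261.8 and a median of 169.4. The median was 164.8 for the 637 distal peaks inside genes, 207.2 for the 1564 promoter peaks (summit within 500 bp of a TSS) and 185.0 for all thresholded peaks on the 4 arms. The median distance to the nearest TSS was 3605 bp, and the farthest site was 68044 bp away. A signal above 500 was reached by 32 sites (8.18%), against 4.08% of distal peaks inside genes, 18% of promoter peaks and 12.9% of all thresholded peaks. These are descriptions of 1 peak set, and peaks are not replicate samples.

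The strong sites were mostly near the centromeres. Centromere-proximal segments were the ends of the left arms, beyond 22 Mb on 2L and 23 Mb on 3L, and the starts of the right arms, up to 6 Mb on 2R and 4.5 Mb on 3R. They held 107 of the 391 sites (27.4%, 23.2 to 32), against 13% of all thresholded peaks on the arms, 13.2% of distal peaks inside genes and 8.95% of promoter peaks. Inside the segments the median signal was 220.0 and 19.6% of sites exceeded 500. Outside them the 284 sites had a median of 164.0, and 3.87% exceeded 500. Promoter peaks showed a wider gap, with a median of 1611.1 in the segments and 197.9 outside. The share in the segments depends on where the limits are set: it was 12.5% with segments shortened by 1 Mb. It was 18.3% when transposable elements were counted as genes.

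**Figure D1:**
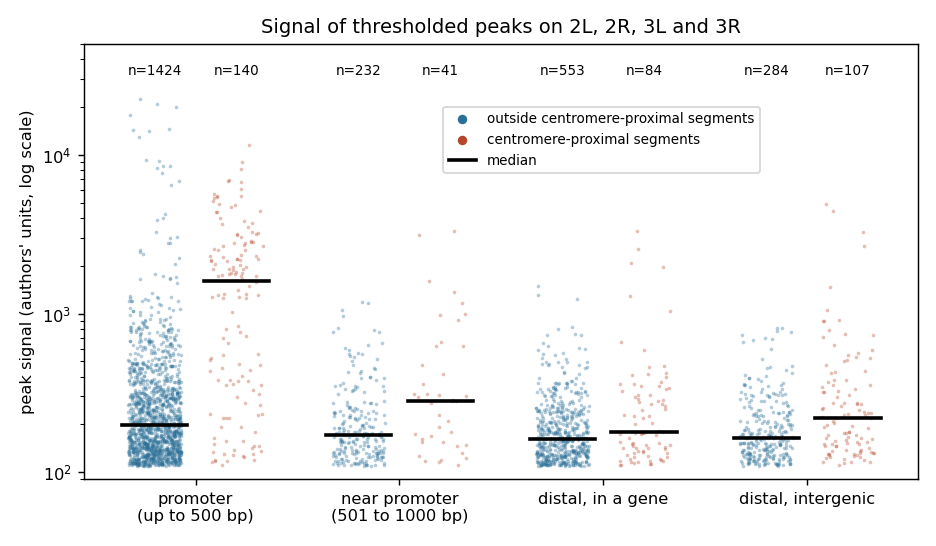
Signal of each thresholded peak on 2L, 2R, 3L and 3R (vertical axis, authors' units, log scale) by its place relative to genes (horizontal axis), split by centromere-proximal segment; each point is a peak, black bars are medians and n counts peaks. Distal intergenic sites above 1000 lie in the segments, and outside them no such site exceeds 814.3.

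Of the annotated sequence that the choice leaves, that is DNA outside genes and over 1000 bp from a TSS, 31.4% lay in the segments. Over all 4 arms the sites stood at 11.9 per Mb in the segments and 14.5 per Mb outside, but the arms differed in direction. On 2L the density was 16.6 in the segment and 14.6 outside, and on 2R it was 15.4 and 10. On 3L it was 8.74 and 20.1, and on 3R 6.97 and 12. Unresolved bases made up 0.472% of this sequence, and how much of it short reads can be mapped to was not measured. The pooled list, which keeps background peaks, had 98 distal intergenic peaks per Mb in the segments and 239.4 outside.

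Few of the candidates between genes passed the authors' reproducibility threshold. Of 5563 distal intergenic peaks in the pooled list, 391 (7.03%, 6.39 to 7.73) were in the thresholded set, against 11.8% of the whole pooled list, 24.9% of promoter peaks and 5.85% of distal peaks inside genes. In the segments 107 of 878 candidates passed (12.2%), and outside them 284 of 4685 (6.06%). Of the sites themselves, 387 of 391 (99.0%) overlapped a peak in each replicate's own list, against 98.2% of all thresholded peaks. The sites come from a list thresholded for reproducibility, so high overlap in this count and the next follows in part from that choice. The replicate lists hold 30000 peaks each and include background, so a stricter count was made. In it 268 sites (68.5%) overlapped a peak among the 3535 strongest of each replicate, against 71.7% of all thresholded peaks. The median was 49.5 in replicate 1 and 127.2 in replicate 2, on scales set separately for each list.

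Across the sites listed in both replicates the 2 signals rose together, with Spearman's rho of 0.637, against 0.734 for all thresholded peaks and 0.789 for promoter peaks. The value was 0.788 in the segments, where the range of signal was wide, and 0.570 outside. These coefficients are descriptions over peaks that share the 2 libraries. The 4 sites absent from replicate 1 were weak, with pooled signals of 111.0 to 128.9 and replicate 2 signals of 97.3 to 124.0. Closely spaced sites could overlap the same replicate peak, which was so for 10 sites in replicate 1 and 18 in replicate 2.

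**Figure D2:**
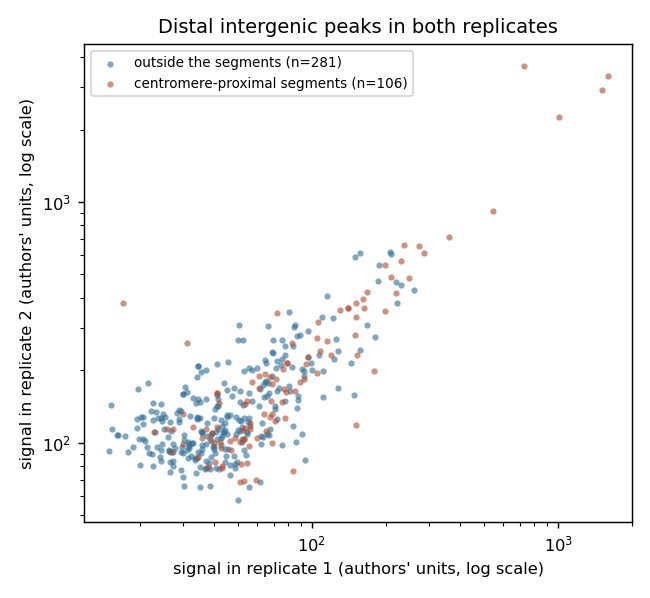
Signal of each distal intergenic site in replicate 1 (horizontal) and replicate 2 (vertical), both in the authors' units on log scales; each point is a site listed in both replicates. The 4 strongest sites have the highest signals in both replicates, and most others form a diffuse cloud at low signal.

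The strongest site, site 1, had its summit at position 4012798 of 2R, 1313 bp from the TSS of Haspin, a kinase that phosphorylates histone H3. Its signal was 4931.0 in the pooled list, 1587.4 in replicate 1 and 3335.5 in replicate 2. It ranked 40 among all thresholded peaks, and no other distal intergenic site ranked higher. Site 2 lay 39424 bp from the nearest TSS, in the gap between CG41128 and CG41099, with 4450.7, 1500.5 in replicate 1 and 2934.6 in replicate 2. Site 3 was 15775 bp from the TSS of Marf1, which encodes an RNA-binding regulator, in the gap to Tif-IA, an initiation factor of RNA polymerase I. Its signal was 3265.0, with 1008.6 in replicate 1 and 2261.5 in replicate 2. Site 4, 1038 bp from the TSS of mRpS5, had 2657.0, with 725.2 in replicate 1 and 3684.8 in replicate 2. Its replicate 2 value was above its pooled value, and whether the overlapping replicate 2 peak has its summit at this site was not tested. All 4 were in the segments, and 6 sites in all exceeded 1000.

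Sites 5 and 6 were the others above 1000. Site 5 was 3613 bp from the TSS of CG41099 and had 1477.5, with 542.9 in replicate 1 and 921.7 in replicate 2. Site 6, between COX4L, related to a subunit of cytochrome c oxidase, and CG10417, had 1057.6, with 360.5 and 717.7 in replicates 1 and 2. Site 7 (909.3) lay beside Spf45, a splicing factor. Site 8 (897.0) lay 66884 bp from the nearest TSS, that of IntS3, a subunit of the Integrator complex. Site 9 (896.4) lay between RpL38, a ribosomal protein gene, and Stlk, a kinase gene. Thus the sites near centromeres included both some just past the 1000 bp limit and some far from any start.

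Of the 25 strongest sites, 15 lay in the segments and 10 outside. Every one of the 25 ranked within the first 435 peaks of replicate 1 and the first 447 of replicate 2, and 18 had another thresholded peak within 5 kb. Site 10, between COX7AL2, another gene related to cytochrome c oxidase, and CG31668, was the strongest outside the segments, with 814.3, 208.0 in replicate 1 and 619.0 in replicate 2. Polycomb group genes flanked a pair of these sites: site 11, between Su(z)2 and CG13323, had 811.6, and site 14, between CG13321 and Psc, had 760.1. Site 13 (775.6) lay between blw, which encodes the alpha subunit of ATP synthase, and CycB, which encodes cyclin B. Site 17 (730.1) lay between CG43131 and RabGGTa, a subunit of the enzyme that prenylates Rab proteins.

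Genes of varied function flanked the other sites of this rank. Site 19 (697.9) was 1614 bp from the TSS of Cpr76Ba, a cuticle protein gene, and site 20 (692.6) lay between Glut3, a sugar transporter gene, and lncRNA:CR45750. Site 21 (681.7) lay between Mdh2, encoding a mitochondrial malate dehydrogenase, and repo, the homeobox gene that marks glia. Site 22 (664.9) lay between slp1 and slp2, the forkhead genes of the pair-rule class. Site 24 (597.1) lay between dpr17, of a family of neuronal immunoglobulin proteins, and CG4702. In the segments, site 12 (783.6) was again between CG41128 and CG41099, and site 15 (741.6) was beside lovit, a transporter of histamine in photoreceptors. Site 16 (733.4) was beside CG41378, site 18 (709.7) beside Slmap, site 23 (633.4) between CG17528 and CG14464, and site 25 (586.9) between IntS3 and Gprk1, a kinase of G protein-coupled receptors. The remaining 366 sites had signals of 109.8 to 567.7, with a median of 164.8.

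The sites farthest from any TSS ranged widely in signal. The 5 farthest were site 123 (68044 bp, between scro, an NK2-class homeobox gene, and CG40472, signal 230.7), site 8 (66884 bp), site 194 (44040 bp, signal 170.5), site 365 (40117 bp, signal 115.1) and site 2 (39424 bp, signal 4450.7). The limit of 1000 bp did not mark a step in signal. The 3 sites just inside it were at 1003, 1005 and 1013 bp with signals of 124.1, 709.7 and 277.9, and the 3 nearest peaks that missed it were at 998, 990 and 982 bp with 363.5, 391.3 and 211.6.

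The sites often had neighbours. Another thresholded peak lay within 5 kb of 199 sites (50.9%), close to the 49.4% of all thresholded peaks, 48.2% of promoter peaks and 45.4% of distal peaks inside genes. The share was 76.6% in the segments and 41.2% outside, and over all thresholded peaks on the 4 arms it was 78.8% and 44.6%. The nearest other peak was itself a distal intergenic site for 216 (55.2%) and a promoter peak for 113 (28.9%). A promoter peak stood within 5 kb of 90 sites (23%), that is 58.9% of those in the segments and 9.51% of those outside, and within 2 kb of 42 sites (10.7%). How much of the signal of such sites comes from the neighbouring promoter peak was not tested. The median distance to a promoter peak was 23417 bp.

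Runs of sites with gaps of up to 5 kb between summits made 61 clusters with 151 sites (38.6%). Of these clusters 44 were pairs, 9 had 3 sites, 6 had 4, 1 had 5 and 1 had 7. Clustered sites had a median signal of 187.1 and the others 164.5. In the segments 57.9% of sites were clustered, and outside 31.3%. Because promoter and genic peaks are not in these clusters, the runs describe intergenic DNA only.

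The cluster with most sites lay between d4, which encodes a PHD finger protein, and sxc, which encodes the O-GlcNAc transferase that modifies Polycomb group proteins, on 2R in the segments. Its 7 summits spanned 8141 bp, with signals in order of 114.4, 177.3, 131.8, 500.9, 532.3, 163.7 and 177.9. Replicate 1 gave 53, 56.1, 59.1, 150.7, 150.6, 17.1 and 42.1, and replicate 2 gave 69.3, 120.2, 70.2, 333.5, 382.4, 382.4 and 145.7. The summits of 500.9 and 532.3 were high in both replicates. The summit of 163.7 overlapped the same replicate 2 peak as that of 532.3 and was low in replicate 1, so its replicate 2 value is shared.

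The next cluster lay outside the segments, on 3L, between lncRNA:CR44363 and CG7560. Its 5 summits spanned 7045 bp, with signals of 187.1, 352.9, 162.9, 358.3 and 150.3. Replicate 1 gave 41.1, 123.1, 19.7, 89.3 and 15.3, and replicate 2 gave 141.7, 222.1, 167.2, 279.8 and 143.2. The summits of 352.9 and 358.3 were the highest in both replicates. Of 6 clusters with 4 sites, the one with the highest summed signal was in the gap of CG41128 and CG41099, where sites 12 and 2, at 783.6 and 4450.7, stood with neighbours of 142.9 and 115.1 within 3552 bp. Site 2 had most of the summed signal of this cluster, and site 12 was itself stronger than any site between d4 and sxc.

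**Figure D3:**
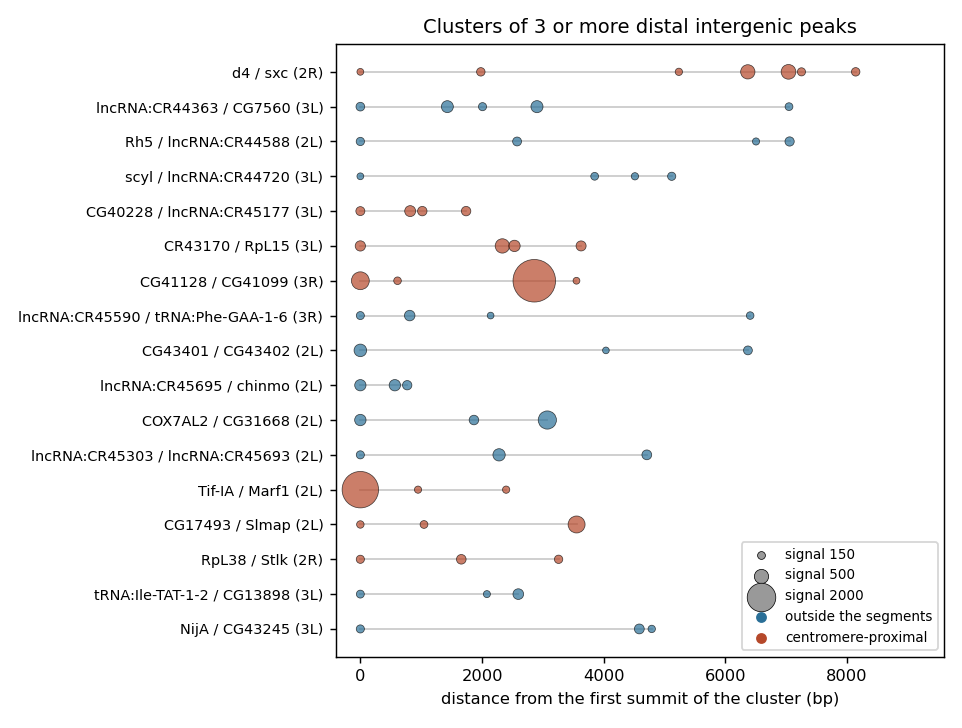
The 17 clusters of 3 or more distal intergenic sites, each on a row named by the genes on its sides and its chromosome arm; the horizontal axis is the distance in bp from the first summit, and the area of each circle is proportional to the pooled signal. The clusters with a site above 1000 (CG41128 and CG41099, Tif-IA and Marf1) lie in the centromere-proximal segments. Outside them, the cluster of COX7AL2 and CG31668 has a site of 814.3 with neighbours of 320.2 and 225.2.

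Gaps between genes were the second unit of description. Of 3975 gaps long enough to hold a distal intergenic site, 268 (6.74%) held at least 1. Their median length was 12.3 kb, against 2.92 kb for gaps without a site. Of the 268, 193 held 1 site, 50 held 2 and 25 held 3 or more. The fullest gaps were that of d4 (FBgn0033015) and sxc (FBgn0261403) with 7 sites in 11.3 kb, that of tRNA:Ile-TAT-1-2 and CG13898 with 6 in 33 kb, and those of CG41128 and CG41099 (94.4 kb), CR43170 and RpL15 (96.7 kb) and CG17493 and Slmap (22.8 kb) with 5 each.

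Per length of eligible DNA, short gaps held more sites than long ones. The density was 26.7 per Mb in gaps of up to 5 kb, 17.2 at 5 to 10 kb, 17.5 at 10 to 20 kb, 12.5 at 20 to 50 kb and 6.18 above 50 kb. In the segments it was 139.8, 102.1, 50, 19.9 and 5.54 over the same bins, and outside them 23.2, 13.9, 16.1, 10.7 and 9.86. The segments thus had the higher density in each bin up to 50 kb and the lower one above it. The bins of the segments up to 20 kb hold 10 to 16 sites each, so their densities are imprecise, and most eligible DNA of the segments is in gaps over 50 kb. By orientation of the flanking genes, the density was 16.6 per Mb between divergent genes (92 sites), 14.9 between genes in tandem (213) and 11.4 between convergent genes (86). The summit was upstream of the gene of the nearest TSS for 233 sites (59.6%). The share of eligible DNA placed upstream in this way was not computed, so no preference can be read from this value.

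**Figure D4:**
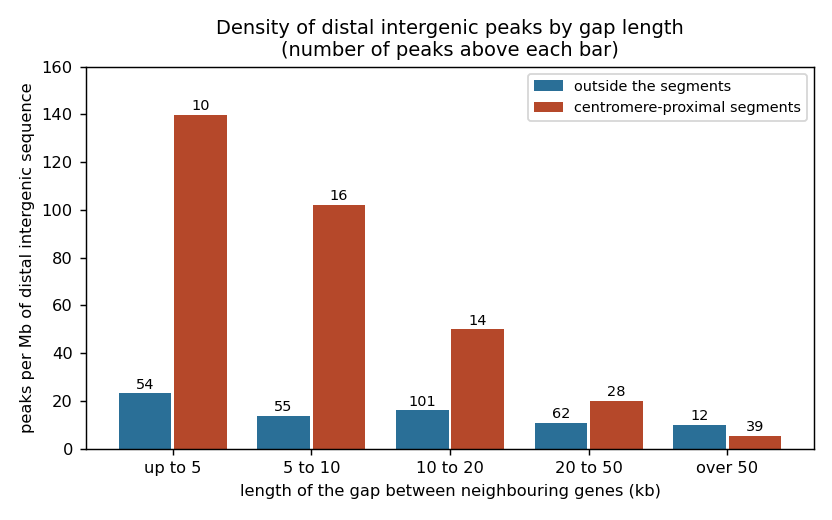
Distal intergenic sites per Mb of eligible intergenic DNA (vertical axis) by the length of the gap between neighbouring genes in kb (horizontal axis), in centromere-proximal segments and outside; the number above each bar is the number of sites. In the segments the density falls from 139.8 to 5.54 per Mb, and outside from 23.2 to 9.86.

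The genes on the sides of these gaps numbered 498, of which 341 were protein-coding and 138 (27.7%) non-coding RNA genes, against 16.8% of genes that flank only gaps without a site. Outside the segments the non-coding share was 30.3% against 16.7%. In the segments it went the other way, at 16.8% against 20.3%. Whether the promoters of the flanking genes were also bound differed by region. In the segments 58 of 71 flanking protein-coding genes (81.7%) had a promoter peak, against 29.2% of those beside gaps without a site. Outside the segments 25 of 270 (9.26%) had one, against 13.9%. No test was made of these shares, and genes on 2 sides of a gap share its sites.

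Among the segmentation genes that flank an eligible gap, 7 of 16 flanked a site, compared with 498 of 5994 (8.31%) of all such genes. Their gaps are long, with a median of 10 kb against 3.2 kb, and their density was 23.4 sites per Mb against 13.7. Site 22, between slp1 and slp2, read 664.9, with 185.4 in replicate 1 and 467.8 in replicate 2. A site flanked by wg, a Wnt ligand gene, had 192.4, with 72.4 and 125.6. It lay 25539 bp from wg, and the nearest TSS was that of Wnt4, at 4449 bp. Another, 10275 bp from ems, a head gap gene, had 171.5, with 28.2 and 133.5. The 9 sites beside these 7 genes had a median of 148.2, so most were weaker than the site of the slp genes.

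In 4 other lists of patterning genes the share that flanked a site was also above 8.31%, from small numbers: 12.5% of homeotic, 22.2% of dorsoventral and mesoderm, 22.2% of neural and 36.4% of imaginal and eye genes, with 7.69% for Notch. The sites per Mb were 15.9, 41.6, 51.9, 23.6 and 22.4, each above the 13.7 of all gaps, over 1 to 4 sites a list. Of the homeotic genes and cofactors, hth alone of 8 did, with a site of 204.6. Of 9 dorsoventral and mesoderm genes, vn, a ligand of the EGF receptor, and bin, a forkhead gene of the visceral mesoderm, did, at 168.7 and 152.9. Of 9 neural genes, repo (681.7) and nerfin-1, a zinc finger gene of neurons (173.2), did. Of 13 Notch pathway genes, E(spl)malpha-BFM alone did (305.2), and of 11 imaginal and eye genes 4 did, hth, toe, eyg and ap, with a highest signal of 204.6. Axon guidance and adhesion genes had 4 of 52, dpr17 (597.1), robo2 (279.5), DIP-delta (224.4) and beat-IIb (143.2), at 3.25 sites per Mb, below the 13.7 of all gaps. For the sites given for hth, vn, nerfin-1, toe, ap, dpr17 and beat-IIb the nearest TSS was that of another gene. The vn site lay 24161 bp from vn and 1676 bp from the TSS of CG5568.

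Set beside the 8.31% of all genes and 13.7 sites per Mb, ribosomal protein genes had 3 of 25 (12%, 25.5 per Mb), RpL38, RpL10 and RpL15, and these 3 flanked 11 sites with a median signal of 260.5. The strongest flanked by each read 896.4, 567.7 and 507.1, and all 3 genes lie in the centromere-proximal segments. That of RpL38 lay 28309 bp from the gene and 1924 bp from the TSS of Stlk. Chemoreceptor genes had 5 of 100 (5%, 7.23 per Mb) and cuticle genes 3 of 51 (5.88%, 15.5 per Mb), among them Cpr76Ba (697.9) and Gr89a (266.1). Transfer RNA genes had 9 of 60 (15%), with 17 sites and 44.2 per Mb. Of these, tRNA:Arg-CCT-1-2 flanked a site of 334.4, tRNA:Ser-GCT-2-2 of 312.3, tRNA:Ile-TAT-1-2 of 281.6 and tRNA:Phe-GAA-1-6 of 274.3. The nearest TSS was that of foxo for the tRNA:Ser-GCT-2-2 site and of CG13898 for the tRNA:Ile-TAT-1-2 site. Long non-coding RNA genes had 137 of 1046 (13.1%, 15.9 per Mb), and their sites had a median signal of 153.5. Small non-coding RNA genes had 1 of 15 (6.67%, 5.82 per Mb), mir-9388 (203.2).

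Transposable elements contained 26 of the 391 summits (6.65%), although they make up 11.1% of the eligible DNA. In the segments 25 sites (23.4%) lay in such an element, against 18.5% of that DNA, and outside the segments only 1 did, an I element. INE-1 had 7 sites, 1360 and roo 3 each and Cr1a 2. The median signal was 161.4 in elements and 170.5 elsewhere, and the strongest in an element was site 23 at 633.4, in Cr1a. Repeats can attract or lose reads at mapping, and the sources used do not say how reads with several matches were treated.

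Motifs known from fly promoters and insulators were searched as exact letters on both strands in the 201 bp around each summit, and set against windows 1000 bp to either side, against promoter peaks and against 139379 tiles of that length covering the eligible DNA. At least 1 of the 10 was present in 121 sites (30.9%), in 29.7% of flanks, in 50.8% of promoter peaks and in 26.5% of tiles. TATCGATA was in 7 sites (1.79%), 9.34% of promoter peaks and 0.4% of tiles, and 6 of the 7 were in the segments. A pair of CGATA, which TATCGATA can overlap, was in 5.88% of sites, 20.7% of promoter peaks and 2.93% of tiles. GGTCACAC was in 1.28% of sites, 6.65% of promoter peaks and 0.265% of tiles. These promoter sequences were thus rarer at the distal intergenic sites than at promoter peaks.

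The other fixed motifs lay on both sides of the level in the tiles. TATAAAA was in 15.1% of sites, 12.9% of flanks and 9.98% of tiles, and TGCATAC in 4.35%, 2.69% and 2.85%. GAGAGAG, bound by GAGA factor, was in 2.05% of sites, 3.96% of flanks and 2.15% of tiles. CAGGTAG, bound by Zelda, was in 0.512% of sites and 0.888% of tiles, and CACGTG, the E-box, in 1.28% and 2.22%. AGGNGGC, part of the CTCF site, was in 5.63% of sites and 6.79% of tiles. AGGGCTG was in 1.28% and 1.27%. A match is not a bound site, and a window with none of these letters says nothing about the factors.

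A ranking of all 8-mers on 2L, 2R and 3L, counted again on 3R, was led by CACTGAGA. It was in 19 of 313 sites (6.07%) against 0.16% of flanks on the first 3 arms, and in 7 of 78 (8.97%) against 0 of the flanks on 3R. Over all 391 sites it was in 26 (6.65%), against 6.28% of distal peaks inside genes, 2.05% of promoter peaks and 0.662% of tiles. All 26 lay outside the segments, where the share was 9.15%, and 0 of 107 sites in the segments had it. Their signals ran from 116.9 to 664.9, with a median of 158.6. The median was 171.5 for the other sites and 164.4 for those of them outside the segments. The matches were a median of 63.5 bp from the summit. Because of that distance the share depends on the window: it was 2.3% with 50 bp on each side of the summit and 10.2% with 250 bp.

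Another leading 8-mer, GAGAGAAA, ranked 9. It was in 23 sites (5.88%), in 7.85% of distal peaks inside genes, 1.41% of promoter peaks and 1.19% of tiles. On 3R it was in 6 of 78 sites against 1.28% of flanks. It too was in 0 of 107 sites in the segments. Both were present in 14 sites, and in 12 of these they overlapped by their 4 shared letters, a check made after the values were seen. CACTGAGA had also been seen over all the sites before the ranking by arm was made, so the 3R count is not independent of having seen these data. The other leading 8-mers, AAAATAAA, AAATTTAA and AAAACTTA, ranked 2, 5 and 27, are rich in A and T. On 3R, AAAATAAA was in 8.97% of sites against 9.62% of flanks, and AAATTTAA in 3.85% against 5.77%. Neither was thus more common at the sites of that arm. AAAACTTA was in 5.13% against 1.92%. Median GC content was 36.3% at the sites, 36.3% at promoter peaks and 41.3% in tiles, so the sites were richer in A and T than the surrounding DNA.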

How the data were processed

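CG17802 binding was measured by ChIP-seq in 2 biological replicates, numbered by the labels, which form 1 group. Per the labels and file descriptions, the authors made a peak list from each replicate, 1 from both pooled, and an optimal list thresholded for reproducibility (IDR), on dm6. The sources used do not give the aligner, the peak caller, its settings or the IDR threshold. The deposited signal column was used as the authors' value per peak, within 1 list at a time. The deposited −log10 q-value column reached a ceiling of 3.66 and was used in no alternative. The deposited summit offset, a column of other values, gave summits; for 1 peak of replicate 1 and 4 of replicate 2 it fell outside the interval, whose midpoint was then used. Read counts were not used here, so depth is unknown and gives no precision; Wilson intervals cover counting error only.

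Genes and TSSs came from Ensembl release 115, and the RefSeq annotation gave the same 391 sites. Replicate values are those of the overlapping peak (at least 1 bp) with the highest signal. Sites, lists and motifs were chosen with earlier results of these data known. No test was run, since there is 1 group and peaks and genes are not samples. The genes named are those beside the 25 strongest sites, the 5 farthest from a TSS, the 3 clusters with most sites, the 5 fullest gaps, the 3 peaks on either side of the distance limit, and up to 4 of each of 13 gene lists. In the segmentation list otd was used under its current symbol, oc. Sequences are printed for the strongest sites outside 2R. Alternatives covered the distance limit, gene set, peak rank, cluster gap, segment limits, window and each replicate alone. The code was checked on planted data. Python 3.11.15, numpy 2.4.6, pandas 2.3.3, scipy 1.17.1 and matplotlib 3.10.9 were used.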

Additional observations from a re-analysis of the deposited data

How the results depend on the processing

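Of 64 alternative values 28 moved. For the number of sites, moved means by over 1.5 times. Elsewhere it means by at least the standard deviation of the 2 single-replicate values. The counting interval was used where no such deviation was computed. For the median signal the deviation was 54.5, taken across 2 replicate scales set separately. The label therefore cannot tell how stable that median is. For the share with a neighbour the deviation was 0.632, so small changes already count as moved. Whether any direction reversed was not tested. The number of sites was 165 among the strongest 50% of thresholded peaks, with a median signal of 294.0, 37% in the segments and 44.2% within 5 kb of another peak; under the other alternatives it was 283 to 478. For each replicate alone its 3535 strongest peaks were taken, so the size of each peak set was fixed in advance. They gave 389 to 394 sites, with medians of 49.1 to 126.3 on each replicate's own scale. The shares were 49.6 to 50.5% with a neighbour, 24.7 to 34.3% in the segments and 28 to 30.5% with a motif. The share with a neighbour was 52.8% with a TSS distance of 500 bp, 46.3% with 2000 bp, 47.2% with transposable elements counted as genes, 51.7% with protein-coding genes only and 41.2% outside the segments. It was 33.8% at a distance of 2 kb and 65.7% at 10 kb. The share in the segments was 18.3% with transposable elements counted as genes and 12.5% with segments 1 Mb shorter. A motif was held by 17.9% of sites with 50 bp on each side and by 64.2% with 250 bp. Overlap with both replicates was 92.6% when 50% of the interval had to overlap; this and the motif shares of single replicates were chosen after seeing the data. Longer windows hold more matches by construction; the cause of the other changes was not tested.

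No paired analysis was possible because there is 1 group and nothing was compared between groups. Depth is unknown, and signals are in units of unstated scale, so weak sites cannot be ranked by precision. The share of mappable DNA was not measured, and the 2 replicates share a fly line.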
